A study of Mus musculus with 8 samples.

Results

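The 10 genes described here, Col1a1, Col1a2, Col3a1, Dcn, Lum, Thbs2, Foxc1, Aldh1a2, Ptgds and Slc6a13, are genes of meningeal fibroblasts. They were chosen by name, as a measure of how much of the meninges was left on the tissue, and were looked up by symbol among the 23284 gene symbols of the count files, where all 10 were found. The tissue was dorsal cortex of mouse embryos at E15.5, from which the meninges and the ganglionic eminences had been dissected away. Bulk RNA-seq gave 8 libraries, of which 4 carry the genotype label WT, written as ErbB4+/+ throughout, and 4 the label ErbB4-/-. In the knockout line the receptor ErbB4 is missing from the germline on, and a transgene under the alpha-MHC promoter, which is active in heart muscle, gives it back to the heart. The genotypes were kept as separate homozygous colonies, so colony and genotype cannot be told apart, and the labels do not say which embryos shared a litter.

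The meninges are the sheets of connective tissue around the brain. Their fibroblasts lie on the pial surface of the embryonic cortex, make the collagens and proteoglycans of its coverings, and send retinoic acid and other signals to the cortex below. The fibrillar collagens Col1a1, Col1a2 and Col3a1, the small leucine-rich proteoglycans Dcn and Lum that bind collagen fibrils, and the secreted matrix glycoprotein Thbs2 are structural or matrix genes. Foxc1 encodes a forkhead transcription factor that meningeal development needs. Aldh1a2 makes retinoic acid, Ptgds makes prostaglandin D2, and Slc6a13 is a transporter of GABA and taurine. In bulk tissue, fewer fibroblasts and less RNA per fibroblast cannot be told apart.

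Between 28205703 and 48871480 reads were counted per library, and 14696 genes were tested. Reads of Erbb4 itself were not fewer in the libraries labelled ErbB4-/- (20.7 to 24.6 counts scaled to a common library size, CPM) than in those labelled ErbB4+/+ (8.99 to 25.3 CPM), so these counts do not check the labels, and every direction given here rests on them. Xist, which marks a second X chromosome, was at 983 to 1690 CPM in ErbB4+/+ libraries 1 to 3 and at 2.7 to 3.82 CPM in ErbB4+/+ 4 and all 4 libraries labelled ErbB4-/-, so a split by Xist and one by label differ in 1 of 8 libraries. ErbB4+/+ 1 had relatively fewer reads of long genes (Spearman rho of its deviation with transcript length, -0.579 across genes, against 0.0371 to 0.223 in the other 7). ErbB4-/- 3 stood apart in the genes described here, as given below. Markers of cortical neurons summed to 3490 to 4010 CPM and those of cortical progenitors to 2250 to 2960 CPM, and markers of the ganglionic eminences and interneurons to 763 to 1020 CPM.

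Upstream sequence is shown for 3 genes that differ in what they did between the genotypes. Thbs2 was the gene whose libraries separated by label, while Col3a1 and Foxc1, the matrix and transcription factor genes with more reads, had almost the same mean in both groups. The 250 bases before the RefSeq start (table of build GRCm38.p6, which held 7 of the 10 genes) were placed on NCBIM37 (mm9) by exact match, and are written 5' to 3' on the gene's strand. Capitals mark promoter motifs on either strand, namely TATAAA of the TATA box, CCAAT of the box of that name and GGGCGG of the GC box, which do not overlap each other here.
Thbs2, chr17:14831270-14831519, minus strand: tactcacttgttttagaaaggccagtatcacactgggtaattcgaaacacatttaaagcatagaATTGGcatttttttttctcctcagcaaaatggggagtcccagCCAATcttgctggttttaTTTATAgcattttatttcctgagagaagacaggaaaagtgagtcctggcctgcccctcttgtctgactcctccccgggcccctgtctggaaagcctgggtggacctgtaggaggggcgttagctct
Col3a1, chr1:45368133-45368382, plus strand: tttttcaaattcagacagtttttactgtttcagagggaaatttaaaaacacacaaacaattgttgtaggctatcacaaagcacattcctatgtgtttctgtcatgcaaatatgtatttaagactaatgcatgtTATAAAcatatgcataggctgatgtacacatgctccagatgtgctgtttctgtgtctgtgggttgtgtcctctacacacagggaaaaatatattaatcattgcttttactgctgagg
Foxc1, chr13:31898265-31898514, plus strand: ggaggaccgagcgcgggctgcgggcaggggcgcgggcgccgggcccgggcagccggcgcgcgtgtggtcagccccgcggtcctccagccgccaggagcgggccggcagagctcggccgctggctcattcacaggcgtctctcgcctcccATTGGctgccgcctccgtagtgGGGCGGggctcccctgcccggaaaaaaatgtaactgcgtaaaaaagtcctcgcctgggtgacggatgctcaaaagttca
The Thbs2 window held 2 CCAAT motifs, which began at bases -186 (reverse strand) and -144 (forward) from the start, and 1 reverse TATAAA. The Col3a1 window held 1 TATAAA on the forward strand. The Foxc1 window held a reverse CCAAT at -101 and a GGGCGG at -79. Over all 32851 promoters of the table, cut to the same 250 bases, 33.8% held CCAAT, 12.4% TATAAA and 32.7% GGGCGG, so each motif is common. A match is a run of letters and not a measured site.

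All 10 genes were low. Together they made up 0.00146% to 0.00252% of the counted reads of a library. Their CPM after TMM normalization summed to 15.9 ± 1.46 (SD, n = 4) in the libraries labelled ErbB4+/+, which were at 17.9, 15.9, 15 and 14.6 CPM from replicate 1 to 4. The sum was 18.9 ± 4.44 (n = 4) in those labelled ErbB4-/-, at 16.8, 18.1, 25.3 and 15.2 CPM. The groups overlapped, and ErbB4-/- 3 alone lay above the rest. Without it, the mean of the libraries labelled ErbB4-/- was 16.7 ± 1.41 CPM (n = 3), and the log2 ratio of the group means went from 0.25 to 0.0762. Of the sum, Col3a1 held 27.8% on average, Col1a2 17.6%, Dcn 17.5% and Foxc1 17.2%. Over the 7 libraries other than ErbB4-/- 3 these shares were 27.9%, 16.4%, 18.5% and 18.1%, and in ErbB4-/- 3 they were 26.6%, 25.9%, 10.5% and 10.8%. Lum, Slc6a13 and Aldh1a2 held less on average, at 0.843%, 0.603% and 0.285%.

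Levels of different genes were ranked per length, as CPM per kb of annotated exon. The shares of the sum given above are not corrected for length. Dcn was the highest of the 10, at 1.52 ± 0.215 CPM per kb (SD, n = 8), and still below 3 in 4 of the genes tested, since 22.1% of them had a lower mean. Ptgds followed at 0.947 ± 0.355, Foxc1 at 0.733 ± 0.142 and Col3a1 at 0.574 ± 0.131 CPM per kb. Each of the first 3 was above the next in 6 or 7 of 8 libraries, with overlapping ranges, so the order of these 4 neighbours is not fixed in every library. Col3a1 was above Col1a2 (0.258 ± 0.118) and Col1a2 above Thbs2 (0.136 ± 0.0692) in 8 of 8 libraries. Thbs2 and Col1a1 (0.129 ± 0.0479) did not differ beyond their spread, with Thbs2 above in 3 of 8 libraries. Lum (0.0826 ± 0.11), Slc6a13 (0.0376 ± 0.0317) and Aldh1a2 (0.0208 ± 0.0222) closed the order. Under 1% of the genes tested had a mean below that of any of these 3.

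Set among their relatives, the genes described were mostly not the leading members. Col2a1, a fibrillar collagen known from cartilage that embryonic neural tissue also expresses, was at 9 ± 1.31 CPM per kb, above Col11a1 (2.84 ± 0.308) and Col5a2 (2.09 ± 0.251), while Col3a1, Col1a2 and Col1a1 stood sixth, eighth and ninth of 11 fibrillar collagens. Among 14 small leucine-rich proteoglycans, Bgn was highest at 6.45 ± 0.253 CPM per kb. Prelp (1.65 ± 0.47) and Dcn (1.52 ± 0.215) followed it and did not differ beyond their spread. Thbs2 was far below its relatives Thbs3 (9.71 ± 1.45) and Thbs1 (5.79 ± 0.683). Aldh1a2 was below its relative Aldh1a3, at 1.37 ± 0.468 CPM per kb. Ptgds was the highest of 6 genes of the prostaglandin D2 pathway, with Hpgds, the other prostaglandin D2 synthase, at 0.654 ± 0.0879.

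**Figure D1:**
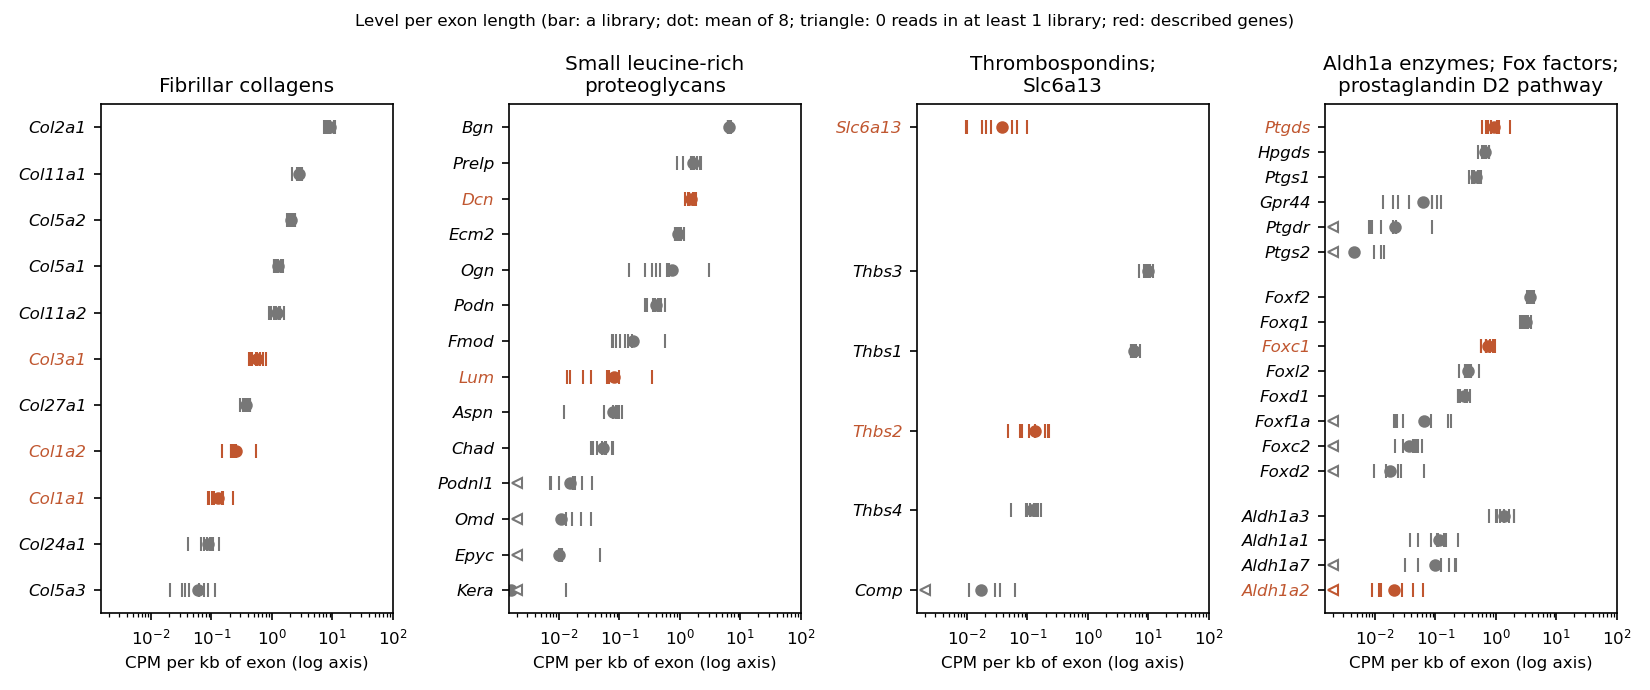
Level of the 10 genes (red) and of relatives of 9 of them (grey; Slc6a13 is shown alone) in CPM per kb of exon on a log axis, with 1 bar per library, a dot at the mean of 8 libraries and an open triangle where at least 1 library had 0 reads. Dcn (1.52) and Ptgds (0.947) were the highest of the described genes, and Aldh1a2 (0.0208) the lowest of them.

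ErbB4-/- 3 had the highest level of 6 of the 10 genes, Col1a1, Col1a2, Col3a1, Lum, Ptgds and Slc6a13, and 4 of these are among the 7 that passed the filter on low counts. Of all genes tested, 11.1% were highest in this library. Against the median of the other 7 libraries, the level in ErbB4-/- 3 was 2.48 times for Col1a2, 2.19 times for Col1a1, 2.04 times for Ptgds and 10.1 times for Lum, the last on 28 reads. Dcn (0.954 times) and Foxc1 (0.982 times) were not raised in it.

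The same library stood apart in choroid plexus markers. All 12 choroid plexus markers were highest in ErbB4-/- 3, and their sum was 670 CPM there, against 14.4 to 28.1 CPM in the libraries labelled ErbB4+/+ and 15.2 to 26.2 CPM in the other 3 labelled ErbB4-/-. Ttr, the thyroid hormone carrier that choroid plexus epithelium makes in bulk, was at 572 CPM against 0.571 to 8.76 in the other 7 libraries. Folr1, a folate receptor of that epithelium, was at 9.09 CPM against 0.107 to 0.706, and Kcne2, a potassium channel subunit, was at 4.33 CPM against 0 to 0.289. Outside the 10 genes, Ogn (7.58 CPM against 0.37 to 1.66), Fmod (1.89 against 0.254 to 0.541) and Slc13a4 (0.589 against 0 to 0.0812), matrix or transport genes known from the meninges, were also highest in it. Of the 14 small leucine-rich proteoglycans, which include Dcn, Lum, Ogn and Fmod, 6 were highest in it, 4 of them among the 7 tested. Others of this family were not raised, such as Aspn at 0.598 times and Podnl1 at 0.42 times the median of the other libraries. Of the 35 genes in a second list of meningeal fibroblast genes, 10 were highest in this library, 5 of them among the 26 that were tested (11.1% of all genes tested were highest in it), and the sum of the list, most of it from a few abundant genes, was 1.1 times the median of the others. Single genes of this list went both ways. Bmp7, a secreted growth factor, was at 2.15 times the median of the other libraries (8.73 CPM against 3.3 to 5.44), and Igf2, a fetal growth factor, at 1.32 times. Crabp2, a retinoic acid-binding protein, was at 0.517 times, and Mgp, a matrix protein, at 0.621 times. Summed endothelial markers were at 257 to 279 CPM in all 8 libraries, and in ErbB4-/- 3 they were at 1.02 times the median of the others. Mural cell markers were at 0.933 times and red blood cell markers at 0.682 times. Of the 15 endothelial markers, 2 were highest in ErbB4-/- 3, among them Slco1a4 at 3.74 CPM against 0.0318 to 0.182 in the other 7 libraries. The part of choroid plexus tissue in the level of any of the 10 genes was not tested, and the genotype differences of the 7 tested genes and the counts of the gene lists are therefore given with and without this library.

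**Figure D2:**
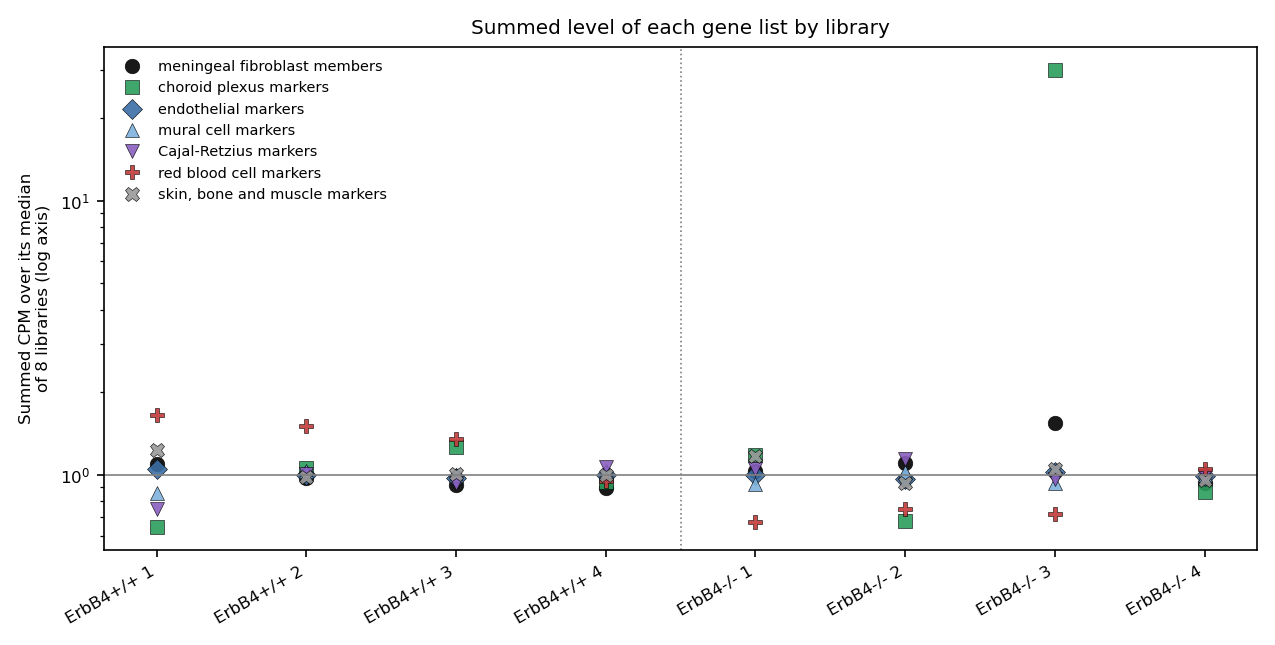
Summed CPM of 7 gene lists in each library, divided by the list's median over the 8 libraries, on a log axis. Choroid plexus markers reached 670 CPM in ErbB4-/- 3, where the 10 meningeal fibroblast genes (black circles) also had their highest sum, 25.3 CPM, while the endothelial list stayed near 1.

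In the comparison of the genotypes, none of the 7 tested genes passed an adjusted p of 0.05 in edgeR's quasi-likelihood test, and 4 of all 14696 genes (0.0272%) did. At an unadjusted p under 0.05, 2 of the 7 were higher in the libraries labelled ErbB4-/- and none was lower, where 3.00% of all genes tested were higher and 2.52% lower. The 2 genes are Thbs2 and Ptgds. Without ErbB4-/- 3 the same 2 were higher and none was lower, where 1.91% of all genes tested were higher and 1.52% lower. DESeq2 and limma-voom also gave 0 at the adjusted threshold, with 3 and 2 genes at an unadjusted p under 0.05. The median log2 fold change of the 7 was 0.0548, beside -0.00222 over all genes tested. The genotypes did not overlap in 1 of the 7, Thbs2, and 1.86% of all genes tested were higher without overlap in the libraries labelled ErbB4-/-.

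Thbs2 (chr17:14802507-14831269, minus strand) had 18, 14, 11 and 17 reads in the libraries labelled ErbB4+/+, or 0.642, 0.449, 0.287 and 0.484 CPM. It had 67, 40, 50 and 25 reads in those labelled ErbB4-/-, or 1.36, 1.15, 1.28 and 0.794 CPM. Every library labelled ErbB4-/- was above every library labelled ErbB4+/+. The means were 0.465 ± 0.146 and 1.15 ± 0.25 CPM (SD, n = 4 each), and the log2 fold change was 1.33 (SE 0.283, 95% interval 0.71 to 1.95), or 2.51 times. The unadjusted p was 0.00058 and ranked 16 among all genes, and the adjusted p of edgeR's test was 0.533, so the difference did not pass over all genes. The exact two-sided permutation test gave p = 0.0286, the smallest that 70 assignments allow. With DESeq2 the adjusted p was 0.0511, the lowest of all alternatives, whose adjusted p ran up to 1. Leaving out 1 library at a time, the log2 fold change lay between 1.14 and 1.51, and without ErbB4-/- 3 it was 1.28 (SE 0.311). ErbB4+/+ 4, which has little Xist like all libraries labelled ErbB4-/-, was at 0.484 CPM, below each of them. This is 1 library with 17 reads, so the parts of Xist and of label in the difference cannot be told apart. With Xist as a covariate the value was 1.17 (SE 0.495, unadjusted p = 0.0383, edgeR adjusted p = 1). Thbs2 is one of the genes that the study displayed from these same libraries, so its direction here is no independent evidence.

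Ptgds (chr2:25322229-25325566, minus strand) was at 1.21, 1.15, 1.38 and 0.968 CPM in the libraries labelled ErbB4+/+ and at 1.38, 1.87, 2.82 and 1.71 CPM in those labelled ErbB4-/-. The groups touched: ErbB4+/+ 3 and ErbB4-/- 1 were level at 1.38 CPM, and the other libraries fell on the 2 sides. The means were 1.18 ± 0.17 and 1.94 ± 0.616 CPM, the log2 fold change was 0.72 (SE 0.241, 95% interval 0.19 to 1.24), the unadjusted p 0.0121 and the edgeR adjusted p 0.81. The exact permutation test gave p = 0.0571. Without ErbB4-/- 3, its highest library, the log2 fold change was 0.48 (SE 0.209, unadjusted p = 0.0442), and without ErbB4+/+ 1 as well it was 0.49 (unadjusted p = 0.056).

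Col1a2 and Col1a1, the chains of type I collagen, were both highest in ErbB4-/- 3, and neither differed between the genotypes in the test. Col1a2 (chr6:4454814-4491543) was at 2.64, 2.89, 1.82 and 2.56 CPM in the libraries labelled ErbB4+/+ and at 3.02, 2.53, 6.55 and 3.08 CPM in those labelled ErbB4-/-. Only ErbB4-/- 3 stood clear of the rest, with 256 reads. The log2 fold change of Col1a2 was 0.62 (SE 0.286, 95% interval -0.0035 to 1.25, unadjusted p = 0.0511, edgeR adjusted p = 0.81), and without ErbB4-/- 3 it was 0.22 (SE 0.186, 95% interval -0.19 to 0.63). Col1a1 (chr11:94797538-94814356) was at 0.963, 0.609, 0.73 and 1.03 CPM against 0.69, 0.66, 1.51 and 0.572 CPM. Its groups overlapped, with a log2 fold change of 0.05 (SE 0.334, 95% interval -0.68 to 0.78), which turned to -0.36 (95% interval -0.96 to 0.23) without ErbB4-/- 3. Col1a1 shares 109 bases of exon with Gm17329 on the opposite strand, and libraries without strand cannot separate their reads.

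Col3a1 (chr1:45368383-45406551), the chain of type III collagen, had the most reads of the 10 genes, from 119 to 263 per library. It was at 5.88, 4.52, 4.77 and 4.02 CPM in the libraries labelled ErbB4+/+ and at 3.53, 5.28, 6.73 and 3.78 CPM in those labelled ErbB4-/-, with both the highest and the lowest library among the latter. The log2 fold change was 0.01 (SE 0.206, 95% interval -0.44 to 0.46, edgeR adjusted p = 0.992), and it was -0.19 (95% interval -0.60 to 0.21) without ErbB4-/- 3.

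Dcn (chr10:96942245-96980777) was at 2.39, 3.14, 3.57 and 2.79 CPM in the libraries labelled ErbB4+/+ and at 3.47, 2.73, 2.66 and 2.73 CPM in those labelled ErbB4-/-. Its range was the narrowest of the 10, with the highest library at 1.49 times the lowest. The groups overlapped, and the log2 fold change was -0.04 (SE 0.164, 95% interval -0.39 to 0.32, edgeR adjusted p = 0.968). It was 0.0035 (SE 0.179) without ErbB4-/- 3. Its neighbour on chromosome 10, Lum (chr10:97028135-97035337), had 2, 4, 2 and 1 reads in the libraries labelled ErbB4+/+ and 7, 7, 28 and 1 in those labelled ErbB4-/-, and did not pass the filter on low counts. Pooled by label, Lum was at 0.0678 CPM of the raw totals (exact 95% Poisson interval 0.031 to 0.129) against 0.278 (0.201 to 0.375), and at 0.13 (0.0728 to 0.215) without ErbB4-/- 3. These intervals cover counting error only, and 1 library gave 28 of the 43 reads.

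Foxc1 (chr13:31898515-31902504) was at 3.85, 2.79, 2.29 and 2.71 CPM in the libraries labelled ErbB4+/+ and at 3.15, 3.59, 2.74 and 2.29 CPM in those labelled ErbB4-/-. The ranges nearly coincided. The log2 fold change was 0.03 (SE 0.193, 95% interval -0.40 to 0.45, edgeR adjusted p = 0.982), and without ErbB4-/- 3 it was 0.06 (SE 0.214). Its paralogue Foxc2 did not pass the filter, at 0.0837 CPM on average in the libraries labelled ErbB4+/+ and 0.119 CPM in those labelled ErbB4-/-.

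Aldh1a2 (chr9:71063596-71144050), which makes retinoic acid in the meninges, was almost unread, with 4, 2, 1 and 0 reads in the libraries labelled ErbB4+/+ and 1, 1, 0 and 3 in those labelled ErbB4-/-. The 2 libraries with 0 reads, ErbB4+/+ 4 and ErbB4-/- 3, allow a level of up to 0.0855 and 0.0765 CPM (3 reads). Pooled, it was at 0.0527 CPM (0.0212 to 0.109) against 0.0324 (0.0105 to 0.0755), or 0.0434 (0.0141 to 0.101) without ErbB4-/- 3, and no difference was detectable at this depth. ErbB4-/- 3, the highest library for 6 of the genes, was thus at 0 for this one. Slc6a13 (chr6:121250245-121287751) had 2, 6, 2 and 1 reads against 3, 1, 11 and 5, with the highest library again ErbB4-/- 3. Pooled, it was at 0.0829 CPM (0.0414 to 0.148) against 0.129 (0.0791 to 0.2), and without ErbB4-/- 3 the second value was 0.0781 (0.0357 to 0.148).

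**Figure D3:**
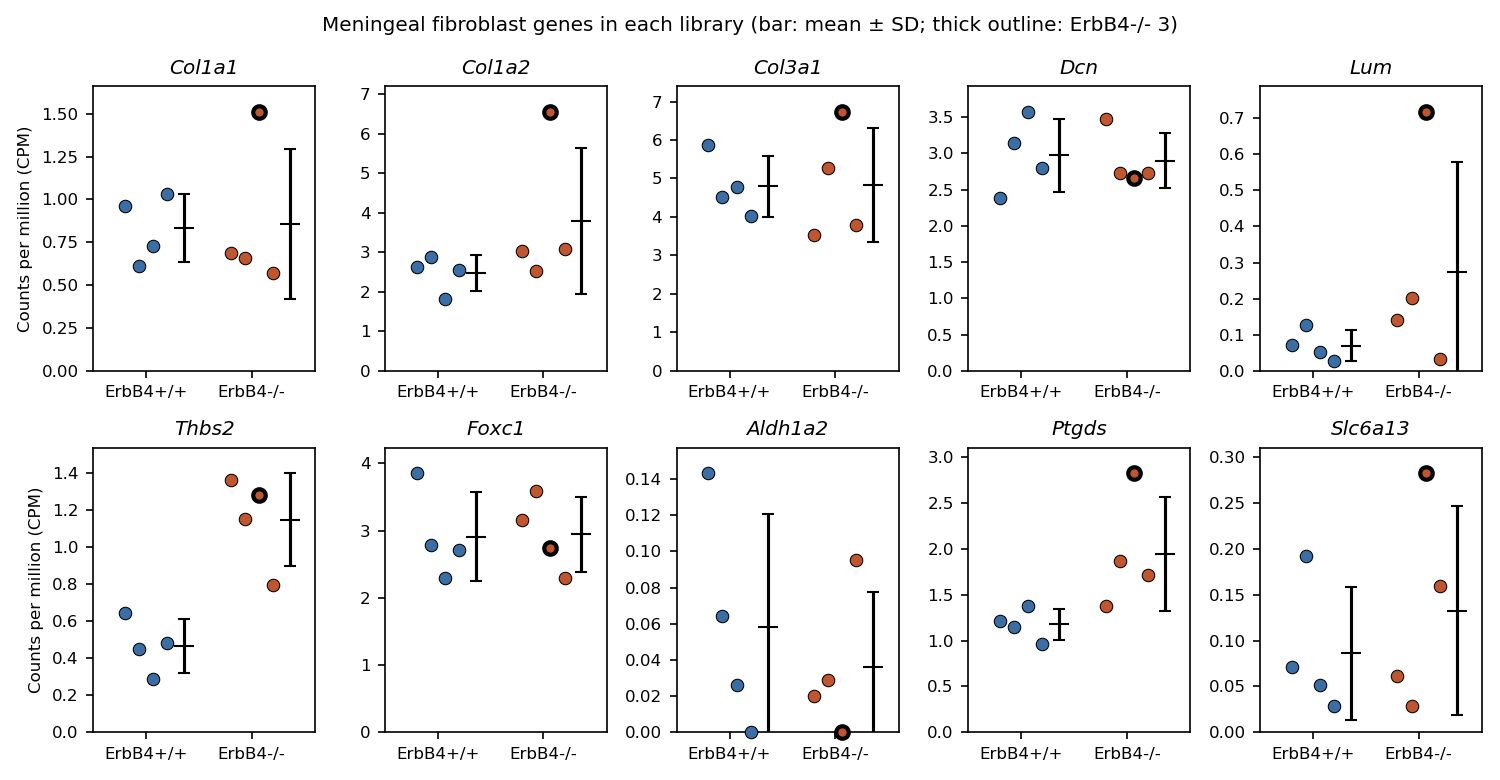
CPM of each of the 10 genes in the 4 libraries labelled ErbB4+/+ (blue) and the 4 labelled ErbB4-/- (red), with the mean ± SD beside them (cut at 0) and ErbB4-/- 3 in a thick outline. Thbs2 is the panel in which the groups do not overlap, and ErbB4-/- 3 is the highest point in 6 of the 10 panels.

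**Figure D4:**
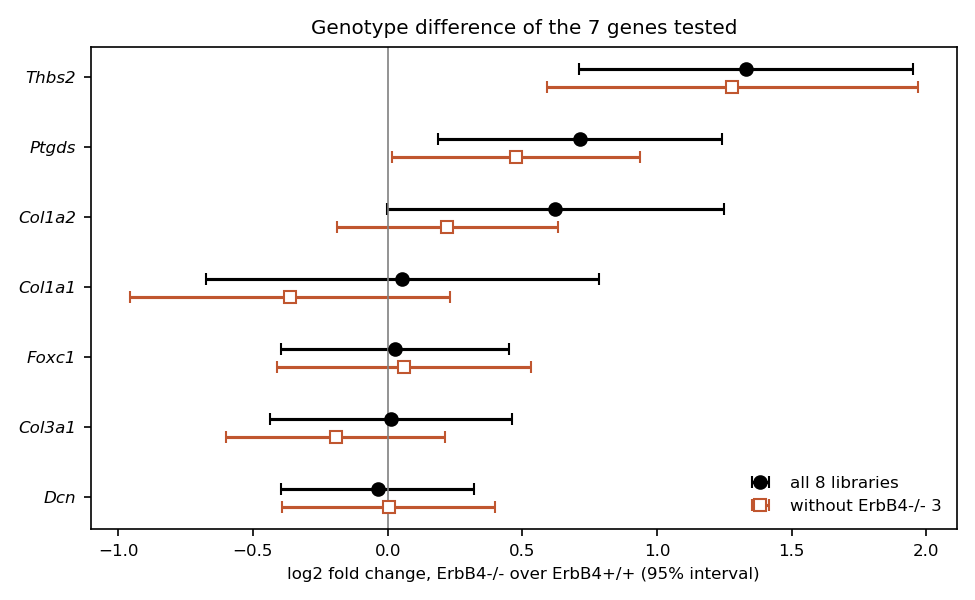
Log2 fold change of the 7 tested genes (libraries labelled ErbB4-/- over ErbB4+/+) with 95% intervals, over all 8 libraries (black) and without ErbB4-/- 3 (red). The interval of Thbs2 stays above 0 in both fits (1.33 and 1.28), while Col1a2 falls from 0.62 to 0.22 and Col1a1 from 0.05 to -0.36.

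Other gene groups of the meninges and the matrix were counted in the same fit, and no gene of these groups passed the adjusted threshold. Of 35 other genes of meningeal fibroblasts, 26 were tested, 13 had a positive and 13 a negative fold change, and the median was 0.031. At an unadjusted p under 0.05, 4 were higher and 1 was lower in the libraries labelled ErbB4-/-, and without ErbB4-/- 3, 2 were higher and none was lower. Of all genes tested, 3.00% were higher and 2.52% lower at that level, and without that library 1.91% were higher and 1.52% lower. Slc22a8, an organic anion transporter, was at 3.01 ± 0.303 against 4.7 ± 0.9 CPM (log2 fold change 0.65, SE 0.161, unadjusted p = 0.00181, edgeR adjusted p = 0.735). Lama2, a laminin chain of basement membranes, was at 2.52 ± 0.478 against 3.82 ± 0.554 CPM (log2 fold change 0.59, edgeR adjusted p = 0.81), and its groups did not overlap. These log2 fold changes were 0.65 and 0.56 without ErbB4-/- 3. Of 33 matrix and collagen-binding genes, 32 were tested and 2 were higher and 1 lower at an unadjusted p under 0.05. Without ErbB4-/- 3 none was higher and 1 was lower, and the median of this list went from 0.0467 to -0.0162. Fbln2, a fibulin of elastic fibres, had a log2 fold change of 0.37, and Emilin1, an elastin-associated glycoprotein, one of -0.32 (edgeR unadjusted p = 0.0296 and 0.0201, adjusted p = 0.81 for both), or 0.34 and -0.35 without ErbB4-/- 3. All 21 genes of collagen synthesis and processing were tested, and 2 were lower and none higher at that level. They are Sec24d, of the vesicles that carry procollagen, with a log2 fold change of -0.25, and Serpinh1, the collagen chaperone, with -0.16 (edgeR unadjusted p = 0.00437 and 0.0255, adjusted p = 0.81 for both). Without ErbB4-/- 3 the count was the same, with -0.26 and -0.19.

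Of 22 genes of the retinoic acid pathway, 14 were tested, with 1 higher and 2 lower at an unadjusted p under 0.05 and a median log2 fold change of -0.043. Of the 15 tested without ErbB4-/- 3, 1 was higher and none lower, and the median was -0.0775. Over all genes tested, 3.00% were higher and 2.52% lower, and 1.91% and 1.52% without that library. Cyp26b1, which breaks down retinoic acid, was at 20.9 ± 1.66 against 25 ± 2.25 CPM (log2 fold change 0.26). Its edgeR adjusted p was 0.81, with an unadjusted p of 0.0116, and its log2 fold change was 0.27 without ErbB4-/- 3. Among the relatives of Dcn and Lum, Ogn had a log2 fold change of 1.85 (SE 0.626, edgeR unadjusted p = 0.0125, adjusted p = 0.81), and 0.77 (SE 0.361, unadjusted p = 0.0584) without ErbB4-/- 3, where no proteoglycan of this family had an unadjusted p under 0.05. In the thrombospondin family, Thbs3 had a log2 fold change of -0.24 (edgeR unadjusted p = 0.0536, adjusted p = 0.81), opposite in sign to Thbs2, and -0.15 without ErbB4-/- 3.

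Markers of other cells that could lie with the cortex were counted in the same way. Of all genes tested, 3.00% were higher and 2.52% lower at an unadjusted p under 0.05 (1.91% and 1.52% without ErbB4-/- 3). A positive fold change was found in 49.2% of all genes tested. Of the 14 tested endothelial markers, none had an unadjusted p under 0.05 and the median log2 fold change was 0.00198. Of the 13 tested mural markers, none had an unadjusted p under 0.05 and the median was 0.0957. With ErbB4-/- 3 left out, no endothelial marker and 1 mural marker, which was higher, had an unadjusted p under 0.05. Of the 9 tested choroid plexus markers, 4 were higher at an unadjusted p under 0.05, and without ErbB4-/- 3 none was higher, 1 was lower, and the median went from 1.89 to -0.0786. Markers of skin, bone and muscle summed to 10.8 to 13.6 CPM in the libraries labelled ErbB4+/+ and 10.3 to 12.9 CPM in those labelled ErbB4-/-. Markers of Cajal-Retzius cells, which lie just under the pia, summed to 255 to 365 and 329 to 388 CPM, and none of the 8 tested Cajal-Retzius markers had an unadjusted p under 0.05, with or without ErbB4-/- 3. Red blood cell markers summed to 33.6 to 58.4 CPM in the libraries labelled ErbB4+/+ and 23.8 to 37.2 CPM in those labelled ErbB4-/-, and 2 of the 6 tested were lower at an unadjusted p under 0.05, as were 2 of 7 without ErbB4-/- 3. Of the 10 cortical progenitor markers, 9 had a negative fold change and 4 were lower at that level (3 without ErbB4-/- 3), with a median of -0.158. Of the 10 cortical neuron markers, 3 were higher (1 without ErbB4-/- 3), with a median of 0.014. None of these markers passed the adjusted threshold. Their part in the values of the 10 genes was not tested.

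The 7 tested genes did not rise and fall as one group across the libraries. Pearson's r of log2 CPM over 8 libraries was positive in 14 of the 21 pairs, with a median of 0.193 and a range from -0.523 to 0.713. None of the 21 pairs had an exact permutation p under 0.05 before adjustment, and the smallest, 0.065, was that of Col1a2 and Thbs2 (r = 0.647, Spearman's rho = 0.595, permutation p = 0.132 for rho, adjusted p = 0.461 for r). Without the 2 libraries farthest from the median of Col1a2, ErbB4+/+ 3 and ErbB4-/- 3, its r with Thbs2 was 0.203, and without ErbB4-/- 3 alone it was 0.647. Col1a1 and Col1a2, the chains of one protein, had r = 0.622 (rho = -0.0238, exact permutation p = 0.11 for r and 0.977 for rho), and r = -0.28 without ErbB4-/- 3. Col1a2 and Ptgds went from 0.713 to 0.0558 without that library. Without ErbB4-/- 3, 10 of the 21 pairs were positive and the median r was -0.0259. With the mean of each label removed, the median over all 8 libraries was 0.323. The closest pair was then Col3a1 and Ptgds, at r = 0.863, and with the means kept its r was 0.533 over 8 libraries and 0.0577 without ErbB4-/- 3. Dcn had a negative r with each of the other 6 genes, the lowest with Col3a1 (r = -0.523, rho = -0.643, exact permutation p = 0.183 and 0.0962).

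**Figure D5:**
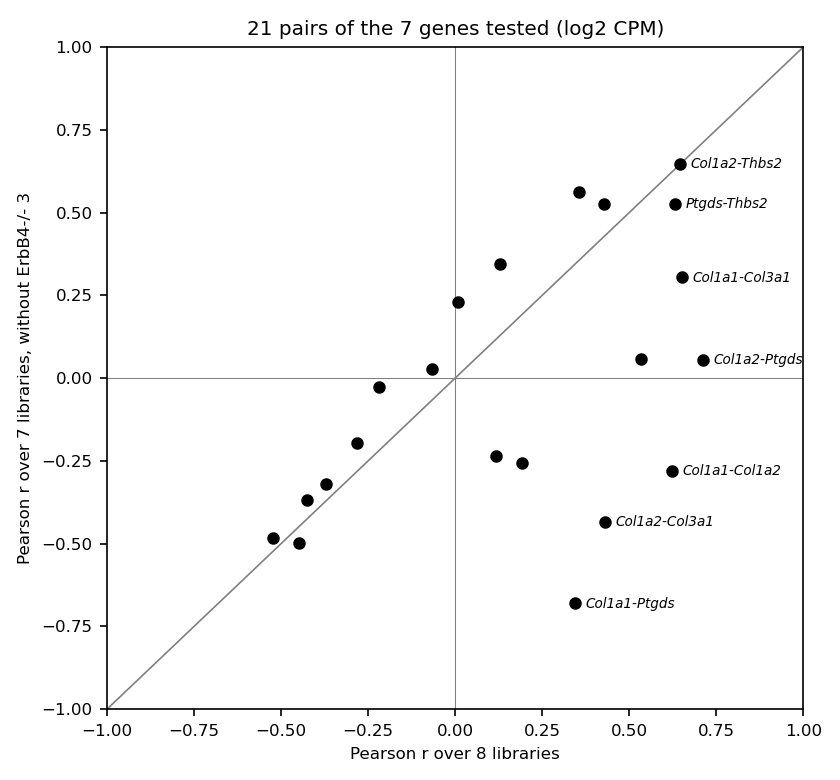
Pearson's r of log2 CPM for the 21 pairs of tested genes, over 8 libraries (x axis) and over 7 libraries without ErbB4-/- 3 (y axis), with the line of equal values. Pairs of Col1a1, Col1a2, Col3a1 and Ptgds lie below the line (Col1a1 and Col1a2 at 0.622 and -0.28), and the pair of Col1a2 and Thbs2 lies on it (0.647).

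Among the genes whose log2 CPM over the 8 libraries was most like the mean z-score of the 7 tested genes were Serinc1 (r = 0.963), Clu (0.955), Arsg (0.945) and Prnp (0.937). None of them is in the lists of meningeal or matrix genes used here. All 4 were highest in ErbB4-/- 3, with Clu, a secreted chaperone, at 42.2 CPM there against 25.5 to 35.2 in the other 7. Over the 7 libraries without ErbB4-/- 3, the 5 most alike were Sirt3, Gbp3, Slc50a1, Apold1 and Bend6, at r from 0.974 to 0.986. The 4 genes named above had r = 0.831 (Serinc1), 0.841 (Clu), 0.855 (Arsg) and 0.961 (Prnp) over these 7 libraries. These values describe 8 and 7 libraries and were picked as the highest of all tested genes, so they carry no test.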

How the data were processed

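PolyA-selected, non-stranded libraries of the 8 samples were sequenced as single reads of 50 bases. HISAT (mapping to mm9) and HTSeq-count (reads per gene) were used by the authors, whose deposited files hold raw counts (whole numbers, not normalized). The authors' deposited table of DESeq2 fold changes and p-values was not used. Genotypes came from the labels. Counts were normalized by TMM in edgeR 4.0.16 (R 4.3.3), filtered with filterByExpr (minimum count 10, minimum total 15), and tested by quasi-likelihood (glmQLFit, glmQLFTest), and p-values were adjusted by Benjamini-Hochberg over 14696 genes and a threshold of 0.05. Log2 CPM used a prior count of 2. The 95% intervals of log2 fold changes use the test's SE and degrees of freedom. Exact permutation tests were two-sided. Depth was 28205703 to 48871480 counts, so genes with few reads, such as Aldh1a2, have wide errors. Positions and exon lengths came from the GENCODE annotation of NCBIM37, matched by symbol. The steps were tested on simulated data. As nothing in the labels says that replicates came from separate litters, p-values measure the spread between these samples.

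The members, gene lists and rules were chosen with earlier results of these data known. Named are all 10 genes, the 2 genes with the smallest unadjusted p of a list, relatives by level, the 5 genes most like the members, Erbb4 and Xist; genes singled out in ErbB4-/- 3 were chosen after their values were seen. A few genes that these rules name are not reported here. Alternatives were DESeq2 1.42.0, limma-voom (limma 3.58.1), relative log expression (RLE) normalization, total counts only, a mean of at least 50 counts or no filter in place of filterByExpr, a replicate block, Xist as a covariate, the length trend removed, and each library left out. Leaving out ErbB4+/+ 1 and ErbB4-/- 3 together was added after seeing the data. Figures were drawn with matplotlib 3.10.9.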

Additional observations from a re-analysis of the deposited data

Results flagged for a closer look

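In 42 groups of 4 libraries (the 10 genes, their sum and 10 marker lists in both genotypes), 6 had 1 library whose gap to the next was above Dixon's 95% limit, which chance passes in about 1 of 20 groups. Among the libraries labelled ErbB4-/-, Col1a1 was at 1.51 CPM in replicate 3 against 0.572 to 0.69 in the others, and Col1a2 at 6.55 CPM against 2.53 to 3.08. Dcn was at 3.47 CPM in ErbB4-/- 1 against 2.66 to 2.73. Summed choroid plexus markers were at 670 CPM in ErbB4-/- 3 against 15.2 to 26.2. Among the libraries labelled ErbB4+/+, replicate 1 was apart from the others in mural cell markers, at 140 CPM against 164 to 169, and in skin, bone and muscle markers, at 13.6 CPM against 10.8 to 11.1.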

How the results depend on the processing

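No member passed an adjusted p of 0.05 under any of the 18 alternatives. Thbs2, Ptgds and Col1a2 kept a positive fold change in each alternative that tested them, and at 1.31, 0.696 and 0.542 with the replicate block. The other 4 changed sign around 0. Col1a1 (0.0548) was at -0.0266 with limma-voom, -0.293 with Xist as a covariate, -0.0138 with the length trend removed, -0.29 without ErbB4+/+ 1 and ErbB4-/- 3 together, and -0.364 to 0.19 leaving out single libraries. Col3a1 (0.0124) was, in the same order without Xist, at -0.026, -0.0591, -0.0824 and -0.193 to 0.143, and at -0.0175 with the replicate block. Dcn (-0.0369) was at 0.0733 with Xist and -0.14 to 0.0655 leaving out single libraries, and Foxc1 (0.026) at -0.00969 with the length trend removed and -0.0799 to 0.186. The sign changed without ErbB4-/- 3 in Col1a1, Col3a1 and Dcn, without ErbB4+/+ 3 in Col1a1, Dcn and Foxc1, without ErbB4+/+ 2 in Col1a1 and Col3a1, without ErbB4+/+ 4 or ErbB4-/- 2 in Col3a1 and Foxc1, and without ErbB4-/- 1 in Foxc1.

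The 2 members with an unadjusted p under 0.05 became 4 with no filter (Col1a2 and Lum added), 1 with a mean of at least 50 counts (Thbs2 not tested), 1 (Thbs2) without ErbB4+/+ 1 and ErbB4-/- 3 together, and 2 to 3 leaving out single libraries. The median log2 fold change (0.0548) was 0.337 with no filter, over all 10 members, 0.25 with Xist as a covariate, -0.00969 with the length trend removed, and 0.00919 (without ErbB4+/+ 2) to 0.19 (without ErbB4-/- 4) leaving out single libraries. Total counts only gave 2 members without overlap (Ptgds added), and leaving out single libraries gave 1 to 2, with Ptgds added without ErbB4+/+ 3 or ErbB4-/- 1 and Col1a2 without ErbB4-/- 2. The median r of the pairs lay between -0.0259 and 0.336 leaving out single libraries, and the lowest value was that without ErbB4-/- 3. The cause of these shifts was not tested. The replicate numbers showed no clear pairing of the libraries, and the block changed no call. Correlations of same-numbered libraries were 0.0236 to 0.135, and those of the other pairs -0.187 to 0.154. Depth limits Lum, Slc6a13 and Aldh1a2, which had 1 to 28, 1 to 11 and 0 to 4 reads per library.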
